A study of Mus musculus with 5 samples.

Results

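Immediate early genes and heat shock genes were examined in the esophagus of mice carrying an inducible IL-13 transgene. Members were chosen by name: 27 immediate early genes and 11 heat shock genes, 38 in all of the 18193 genes with a probe set of a single symbol, and they had 75 of the 34945 such probe sets. All mice were CC10-rtta/teton-IL-13 transgenic on the FVB/N background and 3-4 months old. The Dox group (3 arrays) ate a diet with doxycycline and the NO Dox group (2 arrays) a regular diet, so both groups carried the transgene, and the diet and the transgene it switches on cannot be told apart. The transactivator rtta switches on the teton promoter when doxycycline is bound, and the CC10 promoter that drives it is known for its activity in club cells of the airway. Affymetrix Mouse Genome 430 2.0 arrays measured total RNA of the esophagus. The labels do not say whether each array stands for its own animal, so the p-values cover only the spread seen among the arrays, which may be technical.

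Immediate early genes are transcribed within minutes of a stimulus, from promoters that are already open and without new protein synthesis. Many encode transcription factors: Fos and Jun proteins pair to form AP-1, Egr proteins are zinc fingers, and Nr4a proteins are orphan nuclear receptors. Others, such as Dusp1 and Zfp36, shut the response down again. Heat shock genes are driven by HSF1 when proteins unfold, and their products are chaperones that hold, refold or deliver such proteins.

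Each deposited value is a ratio of the array's signal to the mean of the NO Dox arrays, so the NO Dox values of a probe set lie on both sides of 1 and sum to 2. Of all genes, 251 rose and 237 fell in the Dox group, by limma with an adjusted p under 0.05, and the median log2 fold change of all genes was -0.09. The mean ratio over all genes was 1.21 to 1.23 in Dox esophagus and 0.992 to 1.01 in NO Dox esophagus. Esophageal epithelium markers were measured on every array, with a mean ratio of 0.984 to 1.14 in Dox esophagus and 0.937 to 1.06 in NO Dox esophagus, and none of the 6 passed the test. In bulk tissue, fewer cells of a type and less RNA per cell cannot be told apart.

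Of the 27 immediate early genes, Nr4a3 rose and Gadd45g fell in Dox esophagus. That is 1 of 27 in each direction, where 2.68% of all genes passed the test, 1.38% upward and 1.30% downward. Of the 11 heat shock genes none passed the test. Before adjustment, 11 immediate early genes had a p under 0.05 and were higher, against 6.83% of all genes, and 2 were lower, against 11.2%. The heat shock genes at that level were 2 higher and 2 lower. Log2 fold changes below are Dox over NO Dox, given with the standard error of the fit (n = 3 Dox and 2 NO Dox arrays) and a Benjamini-Hochberg adjusted p over all genes.

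**Figure D1:**
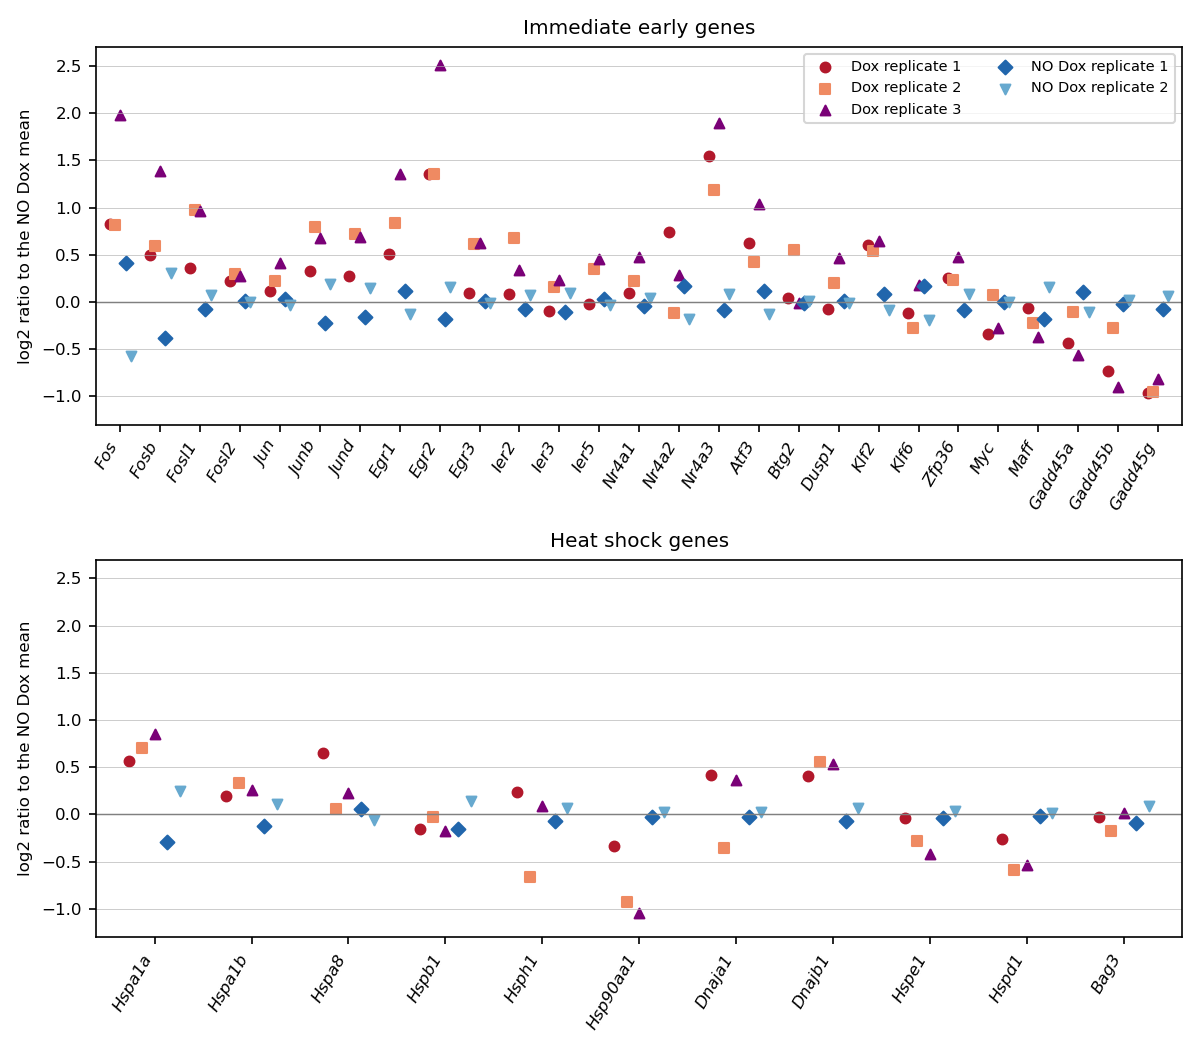
Log2 of the deposited ratio of each member on each array, by class, with Dox arrays left of NO Dox arrays for each gene. Before the log, the ratios of Fos, Egr2 and Nr4a3 are above 3 on Dox array 3, and those of the heat shock genes lie between 0.484 and 1.81 on the Dox arrays.

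The Nr4a receptors bind DNA without a known ligand and are switched on quickly by growth factors, cAMP and calcium. Nr4a3 (NOR-1) had ratios of 2.91, 2.28 and 3.71 in Dox esophagus and 0.940 and 1.06 in NO Dox esophagus. All Dox arrays stood clear of both NO Dox arrays, and the lowest was Dox array 2. The rise was 2.91-fold (log2 fold change 1.54 ± 0.32, adjusted p = 0.0387). The adjusted p was 0.0200 without Dox array 2, and 0.0746, 0.120, 0.295 and 0.240 without Dox array 1, Dox array 3, NO Dox array 1 and NO Dox array 2. It was also 0.0758 with quantile normalization, 0.179 with no intensity trend and 0.298 with the mean log2 ratio as trend. The other Nr4a3 probe sets gave log2 fold changes of 0.33 and -0.27, and their mean with the first was 0.53 (adjusted p = 0.736).

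Nr4a1 (Nur77) had ratios of 1.06, 1.16 and 1.39 in Dox esophagus and 0.968 and 1.03 in NO Dox esophagus, a narrow separation that did not pass the test (0.26 ± 0.15, adjusted p = 0.422). Nr4a2 (Nurr1) had ratios of 1.67, 0.921 and 1.22 in Dox esophagus and 1.12 and 0.879 in NO Dox esophagus. Its groups overlapped (0.31 ± 0.33, adjusted p = 0.679), and its 6 probe sets ran from -0.23 to 1.38.

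The motif TGACGT, the core of the cAMP response element (CRE), was added to the search after the sequences were seen. The region upstream of Nr4a3 is shown because it holds 3 copies of this core, and that of Fos because it holds 1. These are the 250 bases before the RefSeq start site, 5′ to 3′, in build GRCm38.p6, chr4:48045055-48045304 on the plus strand for Nr4a3 and chr12:85473640-85473889 on the plus strand for Fos, with the CRE core in capitals.
Nr4a3: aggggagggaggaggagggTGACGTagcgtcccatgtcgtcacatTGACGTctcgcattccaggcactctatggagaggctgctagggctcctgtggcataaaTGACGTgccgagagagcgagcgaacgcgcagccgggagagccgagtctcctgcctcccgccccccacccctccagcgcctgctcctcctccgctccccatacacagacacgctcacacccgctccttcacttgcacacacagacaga
Fos: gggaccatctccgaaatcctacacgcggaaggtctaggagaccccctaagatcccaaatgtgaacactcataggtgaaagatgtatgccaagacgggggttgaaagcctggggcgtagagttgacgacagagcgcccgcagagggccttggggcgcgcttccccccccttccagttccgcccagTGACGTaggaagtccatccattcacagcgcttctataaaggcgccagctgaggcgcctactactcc

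RefSeq windows from 250 bases before to 50 bases after the start were available for 31 of the 38 members, 22 immediate early and 9 heat shock genes, and for 14452 of the 18193 genes. Some genes had several windows. Motifs were searched on both strands, and a gene counted where any of its windows held the motif. The CRE core TGACGT lay in 7 of 22 immediate early genes (31.8%), namely Atf3, Btg2, Dusp1, Egr2, Fos, Maff and Nr4a3. It lay in 11.0% of all genes with a window. Since this core was added after the sequences were seen, these shares are no independent comparison. The full CRE, TGACGTCA, which contains the core, lay in 3 of 22 (13.6%), Btg2, Dusp1 and Maff, and in 2.92% of all genes with a window. A full CRE holds the core on both strands. Counted so, Nr4a3 and Dusp1 had 3 copies of the core in a window, and Btg2 and Maff had 2. The AP-1 site TGACTCA lay in 0 of 22 and in 5.33% of all such genes. The CArG box lay in 2 of 22 (Egr2 and Zfp36) and 1.58%, and the EGR site GCGTGGGCG in 1 of 22 (Maff) and 1.17%. Of the 7 genes with the CRE core, Nr4a3 rose and the others did not pass the test, with log2 fold changes of 1.75 for Egr2, 1.29 for Fos, 0.70 for Atf3, 0.20 for Dusp1, 0.19 for Btg2 and -0.21 for Maff.

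Among the Fos proteins, which need a Jun partner to bind DNA, all 4 genes had every Dox array above both NO Dox arrays, and none passed the test. For comparison, 13.7% of all genes had that arrangement. Fos had ratios of 1.77, 1.76 and 3.95 in Dox esophagus and 1.33 and 0.671 in NO Dox esophagus. Dox array 3 stood far above the other two, and the NO Dox arrays themselves lay well apart. The log2 fold change of Fos was 1.29 ± 0.38, with a 95% confidence interval of 0.43 to 2.15 and an adjusted p of 0.118. It was 0.38 with quantile normalization (adjusted p = 0.948) and 0.80 without NO Dox array 2 (adjusted p = 0.588).

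Fosb had ratios of 1.41, 1.50 and 2.61 in Dox esophagus and 0.767 and 1.23 in NO Dox esophagus (0.86 ± 0.47, adjusted p = 0.386), with the same array highest. Fosl1 (Fra-1) had ratios of 1.28, 1.96 and 1.94 in Dox esophagus and 0.947 and 1.05 in NO Dox esophagus (0.76 ± 0.34, adjusted p = 0.276), and here Dox array 1 was the lowest. Fosl2 (Fra-2) had the smallest fold change of the family, with 1.16, 1.22 and 1.21 in Dox esophagus and 1.003 and 0.997 in NO Dox esophagus (0.26 ± 0.12, adjusted p = 0.309).

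The Jun proteins can pair with Fos proteins or among themselves. All 3 Jun genes also had every Dox array above both NO Dox arrays without passing the test. Junb had ratios of 1.26, 1.73 and 1.60 in Dox esophagus and 0.858 and 1.14 in NO Dox esophagus (0.62 ± 0.18, adjusted p = 0.121). Jund followed it closely, with 1.21, 1.65 and 1.61 in Dox esophagus and 0.895 and 1.11 in NO Dox esophagus (0.57 ± 0.17, adjusted p = 0.131). Jun had ratios of 1.09, 1.17 and 1.33 in Dox esophagus and 1.02 and 0.976 in NO Dox esophagus (0.25 ± 0.14, adjusted p = 0.386), and its other probe set gave 0.55. A second probe set of Jund gave -0.27.

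Atf3, a stress-induced partner of Jun that often represses its targets, had ratios of 1.54, 1.34 and 2.05 in Dox esophagus and 1.09 and 0.914 in NO Dox esophagus. The groups were separate, but the difference did not pass the test (0.70 ± 0.21, adjusted p = 0.119). Maff, a small Maf protein, lay the other way at -0.21 (adjusted p = 0.570).

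Egr1, Egr2 and Egr3 are zinc finger factors induced through serum response factor. In the probe sets used, their 3 genes likewise had all Dox arrays above both NO Dox arrays. Egr1 had ratios of 1.42, 1.78 and 2.55 in Dox esophagus and 1.09 and 0.914 in NO Dox esophagus. Its log2 fold change was 0.90 ± 0.23, with a 95% confidence interval of 0.39 to 1.42 and an adjusted p of 0.0774. Egr2, which in macrophages belongs to the program induced by IL-4 and IL-13, had a wide spread. Its ratios were 2.56, 2.55 and 5.70 in Dox esophagus and 0.883 and 1.12 in NO Dox esophagus (1.75 ± 0.51, adjusted p = 0.112). The probe set used was chosen by its signal on Dox array 3, its brightest array, so the choice drew on the values tested. The other Egr2 probe set, which the mean level would choose in its place, had overlapping groups and gave 0.70 (adjusted p = 0.437). The mean of both was 1.23. Of 8 macrophage markers 5 rose, and their part in the Egr2 ratios was not tested. Egr3 had ratios of 1.07, 1.53 and 1.54 in Dox esophagus and 1.01 and 0.990 in NO Dox esophagus (0.44 ± 0.18, adjusted p = 0.236), and its second probe set gave -0.45.

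Klf2, a Krüppel-like factor known from endothelial cells and resting lymphocytes, had closely spaced Dox arrays. Its ratios were 1.52, 1.45 and 1.57 in Dox esophagus and 1.06 and 0.943 in NO Dox esophagus, which lay clear of each other, and the adjusted p of 0.0522 missed the threshold (0.60 ± 0.13). Klf2 passed it in 5 of 19 alternative fits. These were median centring of the arrays (adjusted p = 0.0341), the array factors taken out (0.0263), quantile normalization of all signals (0.0256), array weights (0.0242) and the fit without Dox array 2. It missed the threshold in the rest, among them every other omission of an array, the first quantile normalization and the fit with no intensity trend. Of 7 endothelial markers, 1 rose (Plvap, 0.77, adjusted p = 0.0436), 5 lay above 0 and 2 below (Kdr at -0.14 and Tek at -0.15). Mean ratios over the list were 1.47, 1.15 and 1.45 in Dox esophagus and 0.998 and 1.002 in NO Dox esophagus. Over all genes the Dox means were 1.22, 1.21 and 1.23, so the endothelial mean was below that of all genes on Dox array 2. The part of endothelial RNA in the Klf2 ratios was not tested. Klf6, another member of that family, had a log2 fold change of -0.06 (adjusted p = 0.893), with 5 probe sets from -0.43 to 0.17.

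Of the genes that damp the response none passed the test. Zfp36 (tristetraprolin), which destabilises cytokine mRNAs, had ratios of 1.19, 1.18 and 1.39 in Dox esophagus and 0.941 and 1.06 in NO Dox esophagus (0.32 ± 0.14, adjusted p = 0.266). Dusp1, a phosphatase of MAP kinases, had a log2 fold change of 0.20 (adjusted p = 0.602), and the antiproliferative gene Btg2 of 0.19 (adjusted p = 0.634). Ier2 had ratios of 1.06, 1.60 and 1.27 in Dox esophagus and 0.951 and 1.05 in NO Dox esophagus (0.37 ± 0.18, adjusted p = 0.328), and Ier3 and Ier5 had log2 fold changes of 0.10 and 0.26 (adjusted p of 0.772 and 0.461). Myc, the growth factor-responsive transcription factor, had a log2 fold change of -0.18 (adjusted p = 0.601).

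Among the Gadd45 genes, which encode small proteins that bind stress-signalling kinases and cell cycle proteins, all 3 had log2 fold changes below 0, and Gadd45g fell. It had ratios of 0.513, 0.517 and 0.567 in Dox esophagus and 0.952 and 1.05 in NO Dox esophagus. The Dox arrays were close together and far from the NO Dox arrays, a level 1.88-fold lower (-0.91 ± 0.17, adjusted p = 0.0289). The adjusted p was 0.0279 without Dox array 2, and 0.0649, 0.0787, 0.220 and 0.275 without Dox array 1, Dox array 3, NO Dox array 1 and NO Dox array 2. It was also 0.0786 with quantile normalization, 0.172 with no intensity trend and 0.298 with the mean log2 ratio as trend. Gadd45b had ratios of 0.603, 0.827 and 0.535 in Dox esophagus and 0.988 and 1.01 in NO Dox esophagus (-0.63 ± 0.19, adjusted p = 0.115), and all 3 of its probe sets were negative, from -0.63 to -0.17. Gadd45a had ratios of 0.742, 0.931 and 0.678 in Dox esophagus and 1.07 and 0.926 in NO Dox esophagus, with Dox array 2 inside the NO Dox range (-0.36 ± 0.21, adjusted p = 0.426).

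The 250 bases upstream of Gadd45g are shown because it is the member that fell (GRCm38.p6, chr13:51846425-51846674, plus strand, RefSeq). A tie between motifs and direction was not tested. They hold none of the motifs searched, which says only that these letters are not in this window.
Gadd45g: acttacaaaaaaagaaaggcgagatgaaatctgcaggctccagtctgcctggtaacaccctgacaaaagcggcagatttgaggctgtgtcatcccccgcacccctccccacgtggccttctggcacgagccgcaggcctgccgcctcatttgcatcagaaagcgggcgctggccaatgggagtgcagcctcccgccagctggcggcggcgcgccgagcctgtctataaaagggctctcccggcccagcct

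**Figure D2:**
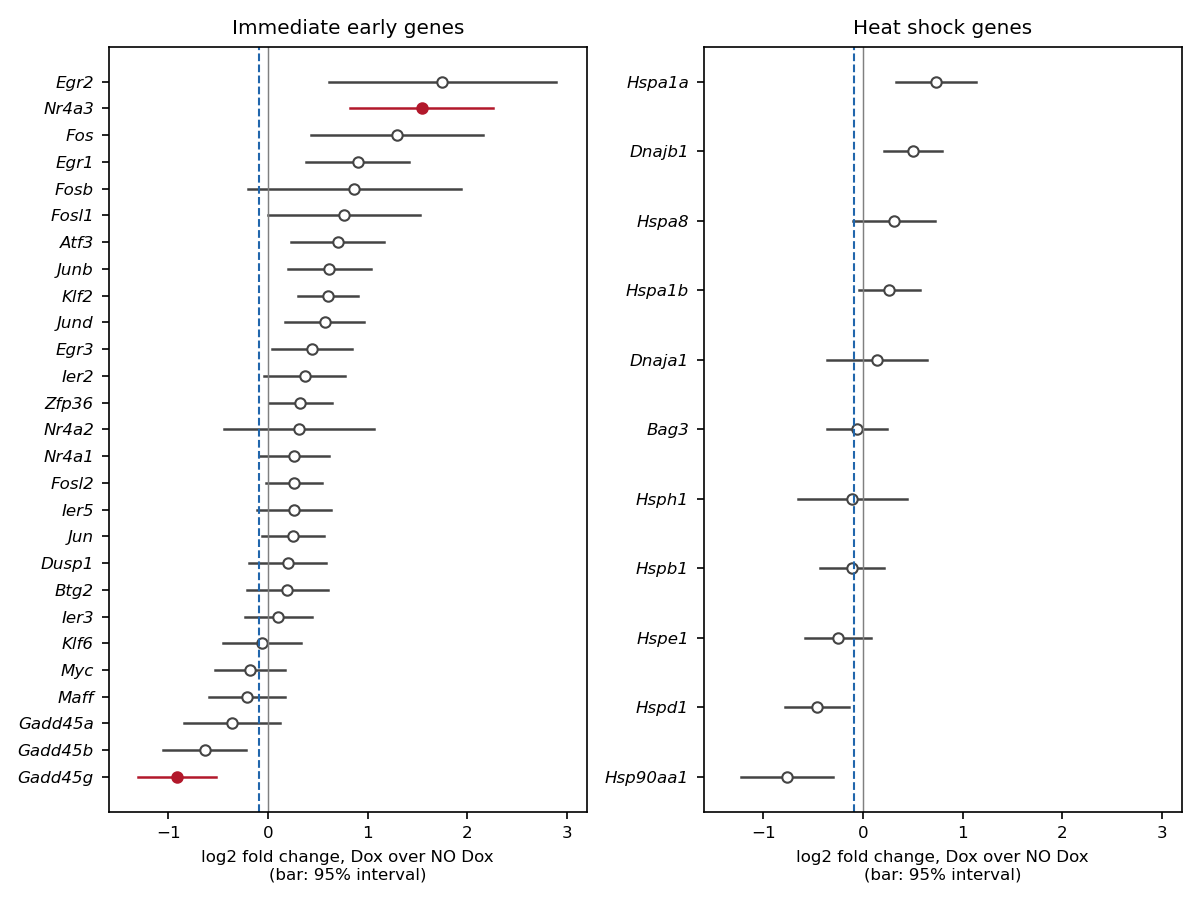
Log2 fold change of each member, Dox over NO Dox, with its 95% confidence interval, by class. Filled red points mark Nr4a3 and Gadd45g, the genes past an adjusted p of 0.05, and the dashed blue line marks the median of all genes, -0.09.

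Of the 11 heat shock genes 5 had log2 fold changes above 0 and 6 below, none past the test. Hspa1a, the stress-inducible Hsp70, had ratios of 1.48, 1.62 and 1.81 in Dox esophagus and 0.816 and 1.18 in NO Dox esophagus. All Dox arrays were above both NO Dox arrays, the NO Dox arrays lay apart from each other, and the difference did not pass the test (0.73 ± 0.18, adjusted p = 0.0700). Hspa1b, its near-identical neighbour, had ratios of 1.14, 1.26 and 1.19 in Dox esophagus and 0.920 and 1.08 in NO Dox esophagus (0.26 ± 0.14, adjusted p = 0.350), with 3 probe sets from 0.01 to 0.34. Probes for this pair can bind RNA of either gene, so which copy gave the signal is uncertain.

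The likeness of the pair extends upstream. Of the 250 bases before each start, 247 were identical and 3 differed (98.8% identity), and each stretch holds 1 heat shock element. It was searched as GAANNTTC or TTCNNGAA and stands in capitals (GRCm38.p6, minus strand, RefSeq, chr17:34972157-34972406 for Hspa1a and chr17:34959239-34959488 for Hspa1b).
Hspa1a: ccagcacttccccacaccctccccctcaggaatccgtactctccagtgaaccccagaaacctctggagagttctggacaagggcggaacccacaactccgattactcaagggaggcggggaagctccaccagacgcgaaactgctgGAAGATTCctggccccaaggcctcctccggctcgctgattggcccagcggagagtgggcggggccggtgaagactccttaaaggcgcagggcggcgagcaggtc
Hspa1b: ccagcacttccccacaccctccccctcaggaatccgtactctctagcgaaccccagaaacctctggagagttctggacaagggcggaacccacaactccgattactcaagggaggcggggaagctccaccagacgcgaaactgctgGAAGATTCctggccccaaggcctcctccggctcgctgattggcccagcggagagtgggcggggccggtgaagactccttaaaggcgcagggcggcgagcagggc

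This heat shock element lay in 8 of the 9 heat shock genes with a window (88.9%), all except Dnajb1. It lay in 3 of 22 immediate early genes (13.6%) and in 15.0% of all genes with a window. The Hspd1 and Hspe1 windows overlap on opposite strands, and Hspa1a and Hspa1b are near-identical upstream, so the 8 are not all separate promoters. Genes that hold the element lay on both sides of 0, from Hspa1a at 0.73 to Hspd1 at -0.46. Dnajb1 (Hsp40), the co-chaperone that feeds clients to Hsp70, had ratios of 1.33, 1.47 and 1.44 in Dox esophagus and 0.950 and 1.05 in NO Dox esophagus. Its Dox arrays lay above both NO Dox arrays (0.50 ± 0.13, adjusted p = 0.0842).

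Hspa8, the constitutive Hsp70, had ratios of 1.57, 1.04 and 1.17 in Dox esophagus and 1.04 and 0.963 in NO Dox esophagus (0.31 ± 0.18, adjusted p = 0.417). Of its 4 probe sets 1 was above 0, and they ran from -0.12 to 0.31. Dnaja1, another Hsp40, had ratios of 1.34, 0.782 and 1.29 in Dox esophagus and 0.981 and 1.02 in NO Dox esophagus (0.14 ± 0.22, adjusted p = 0.790). Hsph1 (Hsp110), a nucleotide exchange factor for Hsp70, had ratios of 1.18, 0.631 and 1.06 in Dox esophagus and 0.950 and 1.05 in NO Dox esophagus (-0.11 ± 0.24, adjusted p = 0.859). In both Dnaja1 and Hsph1, Dox array 2 lay below the NO Dox arrays and the other Dox arrays above them.

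Hsp90aa1, the inducible cytosolic Hsp90, had ratios of 0.794, 0.528 and 0.484 in Dox esophagus and 0.978 and 1.02 in NO Dox esophagus. The groups were separate, with Dox below NO Dox, and the difference did not pass the test (-0.77 ± 0.20, adjusted p = 0.0891). Its 5 probe sets ran from -0.77 to 0.12. Hspd1 (Hsp60) and Hspe1 (Hsp10) form the chaperonin of the mitochondrion and so are not cytosolic, although the list holds them with the cytosolic genes. Hspd1 had ratios of 0.835, 0.663 and 0.691 in Dox esophagus and 0.988 and 1.01 in NO Dox esophagus (-0.46 ± 0.14, adjusted p = 0.135). Hspe1 had ratios of 0.972, 0.820 and 0.751 in Dox esophagus and 0.974 and 1.03 in NO Dox esophagus (-0.25 ± 0.15, adjusted p = 0.429).

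The small heat shock protein gene Hspb1 (Hsp25) and the Hsp70 co-chaperone Bag3, both HSF1 targets, lay near 1. Hspb1 had ratios of 0.896, 0.984 and 0.886 in Dox esophagus and 0.900 and 1.10 in NO Dox esophagus (-0.11 ± 0.14, adjusted p = 0.733). Bag3 had ratios of 0.981, 0.884 and 1.01 in Dox esophagus and 0.940 and 1.06 in NO Dox esophagus (-0.06 ± 0.13, adjusted p = 0.860). The groups overlapped in both.

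As a class, the immediate early genes had a median log2 fold change of 0.31, from -0.91 to 1.75, with 21 of 27 above 0. Over all genes the median was -0.09, and 42.0% were above 0. All Dox arrays were above both NO Dox arrays in 16 of the 27 (13.7% of all genes), below both in 2 (22.8%), and the groups overlapped in 9. Egr2, by the probe set that Dox array 3 chose, gave the 1.75 and is among the 16. The heat shock genes had a median of -0.06, from -0.77 to 0.73, with 5 of 11 above 0, and the groups were separate in 4 upward and 3 downward. For all 11 the signal level of the probe set used had only a lower bound. Among the 3288 genes with only such a bound the median was -0.16, and 28.0% were above 0. Their groups were separate upward in 12.4% and downward in 40.4%. Of the 15 immediate early genes with only such a bound, 13 were above 0, and the groups were separate upward in 9 and downward in 1. No p was computed for either class, since its members had been chosen with results of these data known.

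By array, the median log2 ratio of the immediate early genes was 0.12, 0.34 and 0.47 on Dox arrays 1, 2 and 3 and -0.01 and 0.01 on the NO Dox arrays. That of all genes was -0.07, -0.09 and -0.12 on the Dox arrays and -0.01 and 0.01 on the NO Dox arrays, so the immediate early median lay above that of all genes on each Dox array, least on Dox array 1. The heat shock genes gave 0.19, -0.18 and 0.09 on the Dox arrays and -0.07 and 0.07 on the NO Dox arrays. Their class median thus changed sign between Dox arrays, and without Dox array 2 the class median of the log2 fold changes was 0.16.

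Dox array 3 was the highest of the Dox arrays in 16 of 27 immediate early genes, Dox array 2 in 9 and Dox array 1 in 2, where Dox array 3 was highest in 29.2% of all genes. Dox array 1 was the lowest in 15 of the 27 (29.0% of all genes). Among heat shock genes, Dox array 1 was highest in 6 of 11 (36.4% of all genes) and Dox array 2 lowest in 5 (38.3% of all genes). Ratios above 1 were held by 18, 21 and 21 of the 27 immediate early genes on the Dox arrays and by 12 and 15 on the NO Dox arrays. The heat shock counts were 6, 4 and 7 of 11 on the Dox arrays and 1 and 10 on the NO Dox arrays. Because each ratio is to the mean of the NO Dox arrays, their counts must add up to the class size. Opposite NO Dox counts are therefore built into the ratios.

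**Figure D3:**
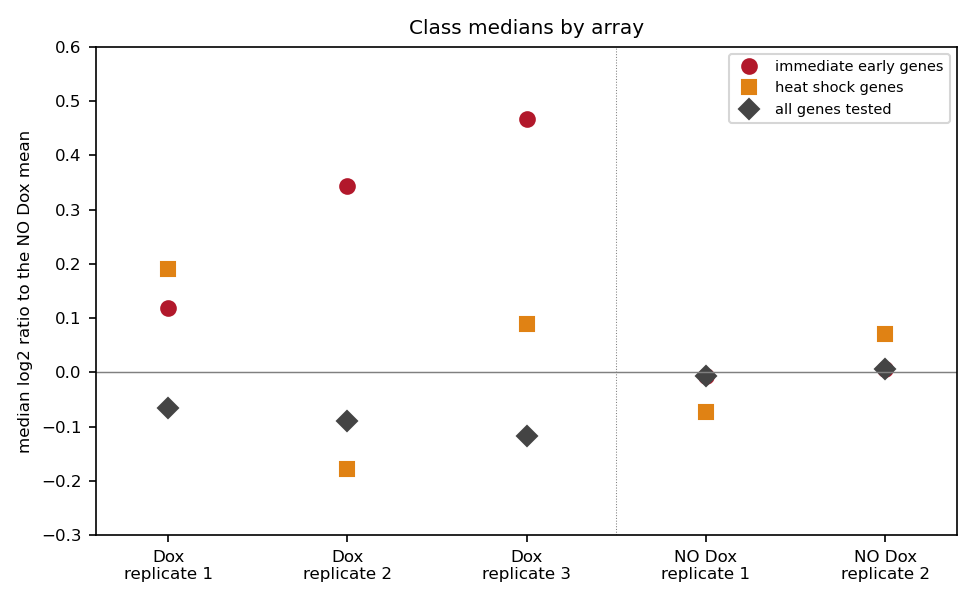
Median log2 ratio on each array, Dox arrays left of NO Dox arrays, for the immediate early genes, the heat shock genes and all genes. The immediate early median is 0.12 to 0.47 on the Dox arrays, and the heat shock median lies on both sides of 0.

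Probe sets of the same gene did not always give the same sign. Of the 38 genes 20 had several probe sets, and in 7 of these (5 immediate early and 2 heat shock) the log2 fold changes had both signs. They were Egr3, Jund, Klf6, Nr4a2 and Nr4a3, and Hsp90aa1 and Hspa8. Among all genes with several probe sets, 4620 of 9010 (51.3%) had both signs.

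**Figure D4:**
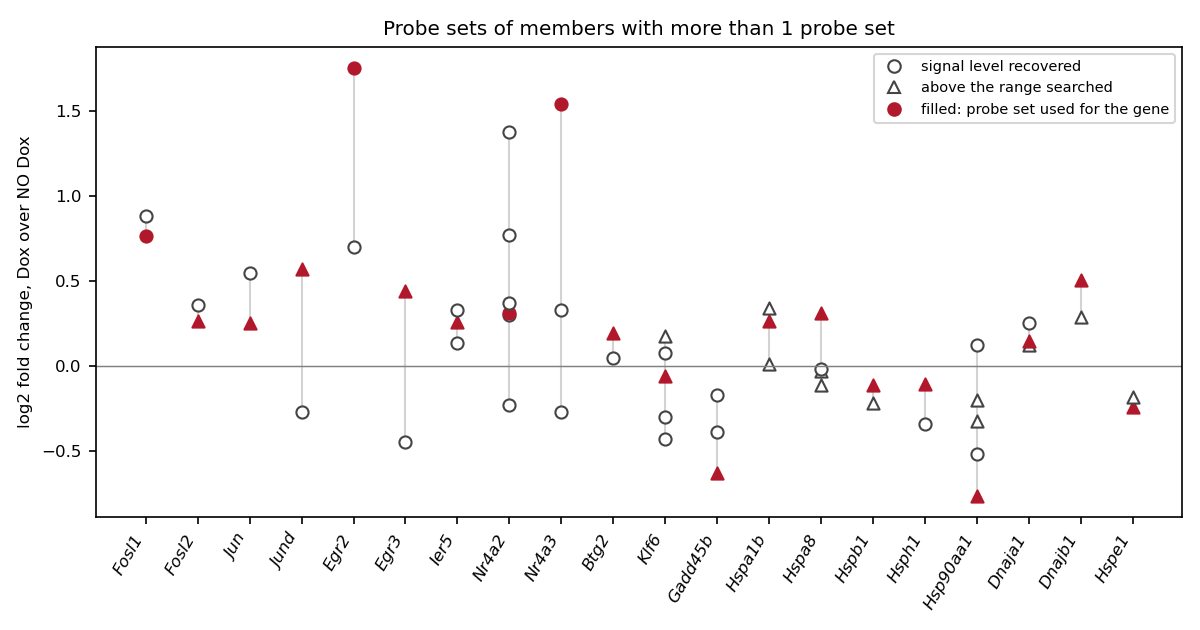
Log2 fold change, Dox over NO Dox, of every probe set of the members with several probe sets, with the probe set used for the gene marked. Nr4a3 and Nr4a2 have the widest ranges, and Fosl2 and Hspe1 among the narrowest.

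Other early response genes, listed beside the members, did not share their median. Of 55 tested, 26 were above 0 and 29 below, with a median of -0.00, and 2 rose and 2 fell. Nfil3, a bZIP factor induced by interleukins in lymphoid cells, had ratios of 4.84, 4.28 and 4.84 in Dox esophagus and 0.936 and 1.06 in NO Dox esophagus, a larger rise than any member's (2.22 ± 0.24, adjusted p = 0.00208). Socs3, the feedback inhibitor of cytokine receptors, also rose (0.89 ± 0.13, adjusted p = 0.0106). Ereg, an EGF receptor ligand, had ratios of 0.443, 0.501 and 0.562 in Dox esophagus and 1.03 and 0.974 in NO Dox esophagus and fell (-1.0 ± 0.15, adjusted p = 0.00953). Per1, both a clock gene and a CREB target, fell as well (-1.04 ± 0.21, adjusted p = 0.0350). The Nfil3 call was lost without NO Dox array 1 (adjusted p = 0.0651), those of Ereg and Socs3 without either NO Dox array (up to 0.164 and 0.162), that of Socs3 also without Dox array 3, and that of Per1 in every omission but that of Dox array 2 (up to 0.305). Per1 also missed the threshold after median centring of the arrays (adjusted p = 0.0546). Of the 19 alternative fits, 16 called Nfil3, 14 Ereg, 13 Socs3 and 9 Per1.

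Of 51 other chaperones and co-chaperones 11 were above 0 and 40 below, with a median of -0.26, and 2 rose and 1 fell. Both that rose serve the endoplasmic reticulum, not the cytosol. Hspa5 (BiP) had ratios of 2.02, 1.71 and 1.84 in Dox esophagus and 0.969 and 1.03 in NO Dox esophagus (0.89 ± 0.14, adjusted p = 0.0121). Dnajb9 (ERdj4), its co-chaperone, had ratios of 2.37, 1.64 and 2.16 in Dox esophagus and 1.06 and 0.938 in NO Dox esophagus (1.02 ± 0.18, adjusted p = 0.0190). Hspb7, a small heat shock protein of heart and skeletal muscle, fell, with 0.628, 0.447 and 0.578 in Dox esophagus and 0.992 and 1.01 in NO Dox esophagus (-0.88 ± 0.17, adjusted p = 0.0277). Each of these calls was lost without Dox array 3, NO Dox array 1 or NO Dox array 2 (adjusted p of up to 0.190, 0.232 and 0.245). That of Hspa5 was lost with the mean of its probe sets (adjusted p = 0.0605). Of the 19 alternative fits, 11 called Hspa5, 13 Dnajb9 and 13 Hspb7, and the log2 fold change of Hspa5 was as low as 0.33.

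Markers of other cell types also differed between the groups. Their mean ratios stand beside 1.22, 1.21 and 1.23 over all genes on the Dox arrays. Of 10 skeletal muscle markers 4 fell, and mean ratios over the list were 0.544, 0.451 and 0.509 in Dox esophagus and 1.05 and 0.951 in NO Dox esophagus. These means join unlike genes. Myh4, Myh7, Myl2 and Tnnc1, which fell, had ratios of 0.0122 to 0.171 in Dox esophagus. Myh2 (0.470, 0.0534 and 0.338) did not pass the test, and Acta1, Ckm, Myh1, Tnnt3 and Atp2a1 lay at 0.716 to 1.03. Of 8 macrophage markers 5 rose, with 2.06, 1.69 and 2.36 in Dox esophagus and 1.03 and 0.973 in NO Dox esophagus. Of 7 lung and airway markers 5 rose, with 4.70, 3.28 and 8.50 in Dox esophagus and 1.05 and 0.947 in NO Dox esophagus. None of 6 smooth muscle, 6 fibroblast or 3 red cell markers passed the test, and their mean ratios were 0.699 to 0.787, 0.791 to 0.995 and 0.700 to 2.15 in Dox esophagus, against 0.890 to 1.11, 0.969 to 1.03 and 0.931 to 1.07 in NO Dox esophagus. The part of these cells in the ratios of the members was not tested.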

How the data were processed

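Per the labels' protocols, RNA of the esophagus was extracted with Trizol and labelled by random priming, and Microarray Suite 5.0 signals were normalized pair-wise in GeneSpring 7.3.1. Each deposited value is a linear ratio to the mean of the 2 NO Dox arrays: in 45099 of 45101 probe sets the NO Dox pair adds up to 2 within 0.0001. The deposited ratios carry no signal level or detection call.

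The members and lists were chosen with earlier results of these data known. Each Dox array carried a constant factor of 0.944, 0.905 or 0.948 relative to NO Dox array 1, found from exact repeated ratios, and NO Dox array 2 one of 1.013. With it removed, whole signal steps (up to 50000, relative tolerance 3e-07) that give all 5 ratios were searched, and a level was found for 40022 probe sets (88.7%). The others, including the probe sets used for all 11 heat shock genes and for 15 immediate early genes, had only a lower bound. Other probe sets of some of these genes had a level.

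Log2 ratios, with the factors left in and no offset or filter, were fitted in R 4.3.3 by limma 3.58.1 (two-sided, Benjamini-Hochberg, adjusted p under 0.05, 3 residual and 6.11 prior degrees of freedom). As trend, eBayes took the recovered level, or the lower bound where no level was found. A gene was represented by its probe set of highest recovered level on its brightest array, so a Dox array could decide the choice. Levels not recovered were counted at 50000 steps and ties broken by probe set type, a rule set after the data were seen. Named are all members and, of the lists of other early response genes and chaperones, every gene past the threshold. Some listed genes, Areg, Hsf1, Hsp90ab1, Ptges3, Hbb-b1 and Hbb-bt among them, were not analysed here. With 3 and 2 arrays, no exact permutation p can be under 0.1. The number of arrays limits the precision. Motifs were searched in RefSeq windows of GRCm38.p6, where the CRE core was added after the sequences were seen. Probe sets were named from the platform annotation.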

Additional observations from a re-analysis of the deposited data

How the results depend on the processing

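Alternatives were run one at a time, and 3 of them were chosen after seeing the data (array factors taken out, quantile normalization of all signals with bounds included, and probe set by the mean level bound). Of the 38 members 31 kept their direction in all 19 fits, 0 were past the threshold in all of them and 11 in at least 1. The median of the immediate early genes was 0.26 to 0.42 throughout, and that of the heat shock genes, -0.06 in the report, was -0.15 to 0.16 with an array left out, 0.16 being without Dox array 2.

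The 488 genes called became 126 with quantile normalization (0 immediate early genes), 4 with no intensity trend (0), 0 with the mean log2 ratio as trend (0, with 2433 genes and 9 immediate early genes at an unadjusted p under 0.05), 1012 with array weights (6), 912 with the replicate number as a block (5) and 1022 at an adjusted p under 0.1 (4). The mean of all probe sets called 1 immediate early gene. Klf2 joined Nr4a3 and Gadd45g with median centring, with the array factors taken out and with quantile normalization of all signals, 3 immediate early genes in each. Leaving out an array gave 56 to 927 genes and 0 to 5 immediate early genes: Egr1 alone without Dox array 1, and Atf3, Gadd45b, Gadd45g, Klf2 and Nr4a3 without Dox array 2. The heat shock count of 0 became 1 with the lowest 25% of levels left out and with the block (Hspa1a in both), 2 with the array factors taken out and with quantile normalization of all signals (Dnajb1 and Hspa1a), 3 with array weights and at an adjusted p under 0.1 (Dnajb1, Hsp90aa1 and Hspa1a), and 0 to 1 with an array left out (Hsp90aa1 without Dox array 1). The cause was not tested.

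The split of 251 higher and 237 lower genes became 317 and 152 with each array centred on its median, 365 and 157 with the array factors taken out, which moved the median of all genes to 0.02 from -0.09, and 311 and 126 with quantile normalization of all signals. Deviations of same-numbered arrays correlated only weakly, at 0.033 and 0.050. The NO Dox deviations mirror each other by construction, so this check cannot exclude that the replicate numbers pair the arrays. Dox array 3 has no partner, so the block takes it out of the group difference.

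These log2 fold changes turned sign: Egr3 -0.01 with the mean of probe sets; Klf6 0.04 centred, 0.17 with the probe set of highest mean ratio, -0.24 to 0.11 with an array left out, 0.05 with factors out and 0.09 with all signals quantile normalized; Hspa8 -0.12 with the mean level bound; Hspb1 0.02 with either quantile normalization and -0.26 to 0.03 with an array left out; Hsph1 0.04 with either, -0.29 to 0.16 with an array left out (above 0 without Dox array 2) and 0.00022 with factors out; Hsp90aa1 0.12 with the probe set of highest mean ratio; Bag3 0.04 centred, 0.07 and 0.08 with the quantile normalizations, -0.15 to 0.03 with an array left out and 0.05 with factors out.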
